A study of Mus musculus with 4 samples.

Results

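Metallothioneins and glucocorticoid-responsive genes were examined in the tibialis anterior (TA), the muscle that lifts the foot, from control and exercise mice. The 8 genes were Mt1, Mt2, Fkbp5, Tsc22d3, Sgk1, Zbtb16, Cebpd and Ddit4, taken by gene name from a table of 57180 genes, and all 8 were found and passed the filter on low values. Male C57BL/6J mice, 3 weeks old at the start, were either sedentary (Control, 2 libraries) or trained on a treadmill (Exercise, 2 libraries). After 5 days of familiarization from 8 m/min for 30 min per day, training lasted 4 weeks, with 45 min per day at 12 m/min on 5 days per week, and muscle was taken at 8 weeks of age. The sources name no transgene or agent in either group. The sources used here do not say whether a library came from 1 mouse, nor how long after the last run the muscle was taken.

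Metallothioneins are small, cysteine-rich proteins that bind zinc and copper, and their genes are known to be induced by metals through the transcription factor Mtf1 and by glucocorticoids. Glucocorticoid hormones bind the receptor encoded by Nr3c1, which leaves its chaperone complex, enters the nucleus and activates genes with glucocorticoid response elements. In skeletal muscle this program is known for restraining growth and promoting protein breakdown, and Fkbp5, Tsc22d3, Sgk1, Zbtb16, Cebpd and Ddit4 are widely used as its readouts.

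Values are TPM, read abundance divided by transcript length and rescaled to sum to the same total in each library, so a shift in abundant transcripts alters the TPM of every other gene. Read depth cannot be recovered from TPM, and precision is that of 2 libraries per group. Of 13288 tested genes, 55.3% were called higher and 6.19% lower in the exercise group by limma on log2(TPM + 1), with a Benjamini-Hochberg adjusted p under 0.05, and the median log2 fold change was 0.53. Comparisons were therefore repeated after median-of-ratios scaling, which brought that median to 0.00 and gave 10.6% higher and 16.8% lower. All 10 muscle fibre markers were found in every library, and their summed level was 114486 and 125743 TPM in the Control and 83913 and 73011 TPM in the Exercise group. The sex-linked transcripts separated the groups although the methods name male mice. Xist silences an X chromosome in female cells. It was at 14.9 and 11.7 TPM in the Control and 0 and 0.07 TPM in the Exercise group. The Y-linked genes Eif2s3y, Ddx3y, Kdm5d and Uty were all called higher in exercise (Tsix was listed at 0 in every library). Eif2s3y was at 0.3 and 0 TPM in the Control and 16.7 and 25.2 TPM in the Exercise group. Ddx3y was at 10.04 and 12.06 TPM in the Control and 41.18 and 37.63 TPM in the Exercise group. In the Control, Uty was at 3.75 and 4.03 and Kdm5d at 1.81 and 2.67 TPM. Ddx3y, Uty and Kdm5d were thus listed above 0 in both control libraries, beside Xist. Training and whatever else differed between the mice along with Xist cannot be told apart in any result given here.

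Of the 8 genes, none was called higher by limma and 3 were called lower in the exercise group, which were Fkbp5, Tsc22d3 and Zbtb16 (background 55.3% higher and 6.19% lower). At an unadjusted p under 0.05, 1 was higher (Mt1) and the same 3 were lower. The shares of all tested genes at that looser threshold are not given and cannot be below 55.3% higher and 6.19% lower. In 4 of the 8 both exercise libraries lay below both control libraries, a pattern seen in 10.5% of tested genes, and in 1 (Mt1) both lay above, as in 72.8% of tested genes. The median log2 fold change of the 8 genes was -0.56, and 7 of them lay below the median of all tested genes. After median-of-ratios scaling the same 3 genes were called lower, the median of the 8 genes was -1.13, and 6 of the 8 had both exercise libraries below both control libraries, against 35.1% of tested genes, and none had both above, against 35.6%. In bulk muscle, fewer cells of a type and less RNA per cell cannot be told apart.

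**Figure D1:**
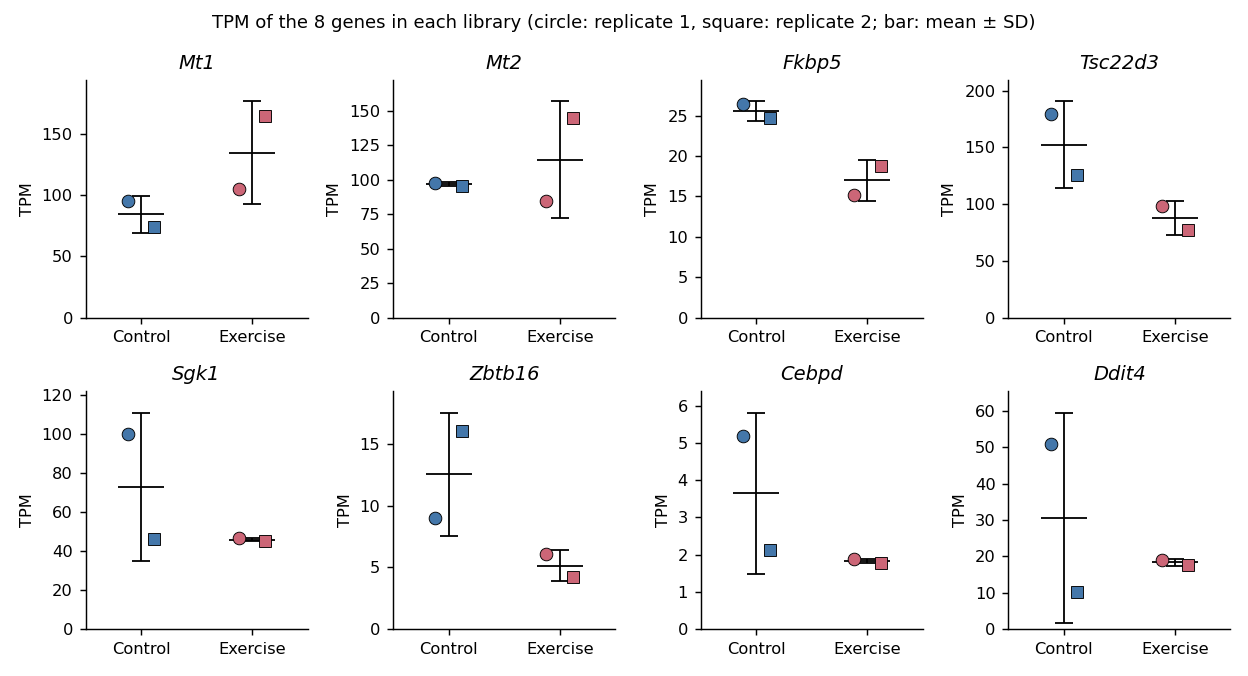
TPM (vertical axes, each from 0) of the 8 genes in the control and exercise libraries, with circles for replicate 1, squares for replicate 2 and bars for the mean ± SD (n = 2 per group). Fkbp5, Tsc22d3, Zbtb16 and Cebpd lie lower in both exercise libraries. Sgk1, Cebpd and Ddit4 stand apart in control replicate 1 (99.9, 5.18 and 51.1 TPM).

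Neither metallothionein gene was called in the comparison of groups. Mt1 (ENSMUSG00000031765) was at 95.1 and 73.9 TPM in the Control and 104.9 and 164 TPM in the Exercise group (84.5 ± 15.04 against 135 ± 42.0, SD, n = 2 each). Both exercise values lay above both control values, with the highest in exercise replicate 2. The log2 fold change of 0.64 (SE 0.235) missed the threshold (adjusted p = 0.051 from limma), and 4 of 15 alternative settings called it (adjusted p 0.021 to 0.98). Among the 8 genes Mt1 alone was called higher with a mean of at least 5 TPM (61.7% of genes higher, 6.64% lower) and among protein-coding genes (61.8% and 6.39%). Median-of-ratios scaling reduced its log2 fold change to 0.01. Mt2 (ENSMUSG00000031762) was at 97.7 and 95.8 TPM in the Control and 84.8 and 144 TPM in the Exercise group (96.8 ± 1.36 against 115 ± 42.2). The control libraries nearly coincided and lay between the exercise libraries. Its log2 fold change was 0.19 (SE 0.241, adjusted p = 0.50 from limma), and the direction turned to -0.44 after median-of-ratios scaling. Leaving out exercise replicate 2 also turned it, to -0.19.

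Mt2 and Mt1 can be compared within a library, where scaling cancels. The ratio of Mt2 to Mt1 was 1.03 and 1.30 in control and 0.81 and 0.88 in exercise libraries, so that Mt2 was the higher of the pair in both control libraries and the lower in both exercise libraries. The mean log2 ratio differed by -0.45 between groups (exact two-sided permutation test, p = 0.333, and 0.389 adjusted over the 7 ratios computed, n = 2 each), and 0.333 is the smallest p that 2 against 2 can give. With each library left out the difference ranged from -0.62 to -0.28. The longest coding transcript of Mt1 shared no stretch of 31 bases with a transcript of another gene in GENCODE vM21, and that of Mt2 shared 3 of 481, all with Pip5k1a. An antisense gene, Gm45774, overlaps Mt2 in that annotation. Mt3, the brain metallothionein, was at 3.04 and 1.4 TPM in the Control and 1.54 and 2.89 TPM in the Exercise group, and Mt4, known from stratified epithelium, reached 0.37 TPM in exercise replicate 1 and was listed at 0 elsewhere.

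Mt2 and Mt1 are neighbours on chromosome 8, with start sites 6471 bases apart, and their promoter windows are shown because metal response elements are the sites through which Mtf1 acts on these genes. The windows span 250 bases before to 50 after the start site (RefSeq, GRCm38.p6, a build other than the GRCm39 of the RNA-seq), and capitals mark matches to the element cores TGCACNC and TGCGCNC on either strand.
Mt1 (chr8:94178839-94179138, plus strand): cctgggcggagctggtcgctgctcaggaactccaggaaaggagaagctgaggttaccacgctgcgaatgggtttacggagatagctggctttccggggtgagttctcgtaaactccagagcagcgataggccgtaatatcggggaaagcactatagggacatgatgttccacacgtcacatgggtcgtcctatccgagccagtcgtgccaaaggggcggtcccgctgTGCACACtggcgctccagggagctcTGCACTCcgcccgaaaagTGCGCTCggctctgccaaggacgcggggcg
Mt2 (chr8:94172368-94172667, plus strand): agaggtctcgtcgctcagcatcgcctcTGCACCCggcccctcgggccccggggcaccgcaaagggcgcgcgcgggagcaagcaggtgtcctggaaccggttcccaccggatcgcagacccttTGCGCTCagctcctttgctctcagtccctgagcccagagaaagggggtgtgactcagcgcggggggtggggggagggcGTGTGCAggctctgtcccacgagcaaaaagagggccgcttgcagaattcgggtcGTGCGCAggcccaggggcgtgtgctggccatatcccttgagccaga
The Mt1 window held 3 matches, which begin at -23, 2 and 20 bases from the RefSeq start site. The Mt2 window held 4, which begin at -223, -128, -50 and 4. Elements outside these windows were not searched for. TGCACNC was found in 12.6% and TGCGCNC in 15.4% of 32851 mouse windows of this length, and 1.97% held at least 3 and 0.517% at least 4 matches to either core. A match to a perfect glucocorticoid response element (AGAACA, any 3 bases, then TGTTCT) was in neither window. Such matches describe letters and do not show that a factor was bound.

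Zinc handling genes were read beside the metallothioneins. Of 18 tested genes of 25 in the list of Mtf1 and the zinc transporters, 14 rose and none fell by limma (none lower at an unadjusted p under 0.05 either, and 55.3% of all tested genes called higher), with a median log2 fold change of 0.74 beside 0.53 for all genes. Slc39a6, a zinc importer, was at 3.63 and 4.28 TPM in the Control and 9.99 and 10.9 TPM in the Exercise group (a log2 difference of 1.21 with an adjusted p of 0.0029, limma). Slc30a4 and Slc30a5, which move zinc out of the cytosol, had 1.02 and 0.93, Slc39a7, a zinc channel of the endoplasmic reticulum, 0.84, and Slc30a9 0.46 (-0.16 after median-of-ratios scaling), all called. Mtf1 itself had 0.78 and Slc30a1, the zinc exporter that Mtf1 is known to induce, 0.59 (these 2 genes were chosen for naming with their values known). After median-of-ratios scaling the list had 2 higher (Slc30a4 and Slc39a6) and 1 lower (Slc39a3), with a median of 0.22. Of 13 tested genes of 14 for copper and iron, 8 rose and 1 fell (55.3% and 6.19% of all tested genes). Their median was 0.62. Atp7a, a copper exporter, had a log2 fold change of 1.24, Hmox1, heme oxygenase, 1.13 and Atox1, a copper chaperone, 0.77. Slc40a1, the iron exporter ferroportin, was the gene that fell. The most abundant, Fth1 and Cox17, had -0.15 and 0.37 and were not called. After median-of-ratios scaling 2 genes of this list were higher and 3 lower, Fth1 among the latter.

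Inflammatory signals are known as a further inducer of metallothioneins. Of 10 genes of this list 5 were tested and 2 rose, Stat3 with a log2 fold change of 0.81 and Il6st with 0.59 (-0.03 after median-of-ratios scaling), while Il1r1 had 0.37 and was not called. None fell (none lower at an unadjusted p under 0.05, limma), and in that scaling no gene of the list was called. Tnf and Il1b did not exceed 0.24 TPM in any library. Saa3, an acute phase protein, was at 62.8 TPM in control replicate 2 and at most 0.23 TPM in the other libraries (named after its values were seen).

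Among the glucocorticoid readouts, Zbtb16, Tsc22d3 and Fkbp5 fell in the exercise group. Fkbp5 (ENSMUSG00000024222) encodes a co-chaperone that lowers the hormone affinity of the glucocorticoid receptor and is itself induced by it. It was at 26.4 and 24.7 TPM in the Control and 15.2 and 18.8 TPM in the Exercise group (25.6 ± 1.22 against 17.0 ± 2.53, SD, n = 2 each). The groups did not overlap, and the gap exceeded the spread within either group. The log2 fold change was -0.57 (SE 0.151, adjusted p = 0.018 from limma) and -1.17 after median-of-ratios scaling.

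Tsc22d3 (ENSMUSG00000031431), on the X chromosome, encodes the leucine zipper protein GILZ, which carries part of the anti-inflammatory action of glucocorticoids. It was at 179 and 126 TPM in the Control and 98.2 and 77.0 TPM in the Exercise group (153 ± 38.1 against 87.6 ± 14.99), the highest of the 6 readouts in every library. Control replicate 1 stood highest and the groups did not overlap. The log2 fold change was -0.78 (SE 0.207, adjusted p = 0.018 from limma), and -1.41 after median-of-ratios scaling. Its longest coding transcript shared 3.03% of its stretches of 31 bases with transcripts of other genes, most with Gm8812, and several small genes overlap Fkbp5 in the same annotation.

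Zbtb16 (ENSMUSG00000066687), which encodes the zinc finger repressor PLZF, had the largest fall of the 8 genes. It was at 9.03 and 16.1 TPM in the Control and 6.06 and 4.24 TPM in the Exercise group (12.6 ± 5.01 against 5.15 ± 1.29). Here control replicate 2 was the highest library, unlike for the other 5 readouts. This gave a log2 fold change of -1.11 (SE 0.281, adjusted p = 0.015 from limma), and -1.66 after median-of-ratios scaling, and only 2.07% of tested genes had a lower log2 fold change. Among the genes of a library, Zbtb16 stood at percentiles 58.5 and 70.5 in control and 37.4 and 26.9 in exercise, ranks that scaling by a factor does not alter. The adipocyte markers, which differ between the control libraries in the same direction, had a summed level of 376 and 759 TPM in the Control and 270.1 and 324 TPM in the Exercise group. Of the 8 tested adipocyte markers 6 fell and none rose (6.19% and 55.3% of all tested genes). None was higher at an unadjusted p under 0.05 (limma). The falls were led by Retn, Cidec and Adipoq, and Cidec and Lep were listed at 0 in exercise replicate 1. With no filter 1 of 9 was called lower, and with the robust option of limma 1 of the 8. Adipoq was at 8.06 and 38.4 TPM in the Control. Cfd had a log2 fold change of -4.36 and Fabp4, the most abundant, -0.43 (not called). Their part in the fall of Zbtb16 was not tested.

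**Figure D2:**
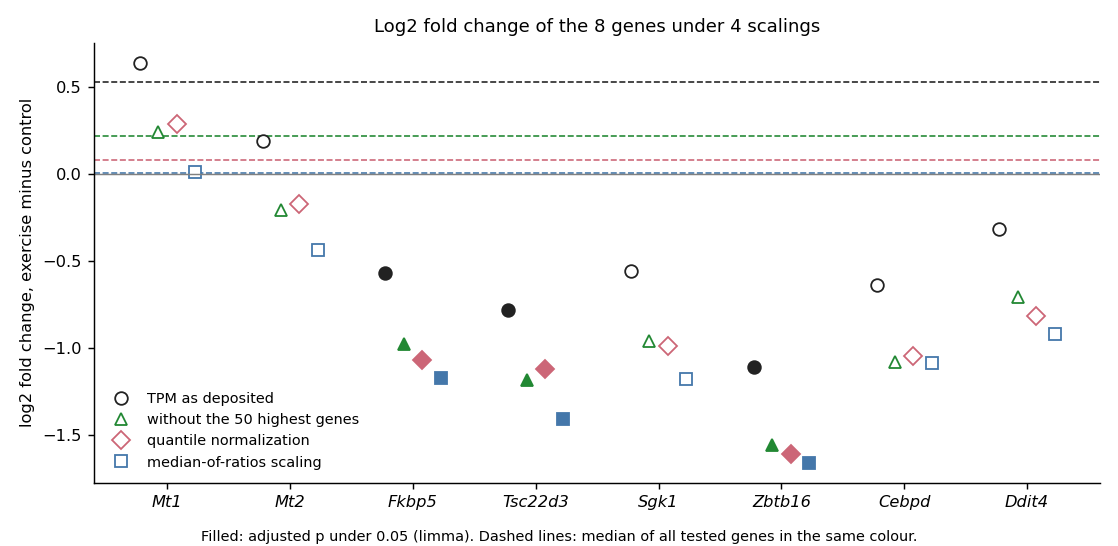
Log2 fold change (exercise minus control) of the 8 genes under 4 scalings, with filled symbols for an adjusted p under 0.05 from limma and dashed lines for the median of all tested genes in the colour of each scaling. Fkbp5, Tsc22d3 and Zbtb16 are called lower in all 4, Mt1 is called in none and Mt2 changes sign.

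Each of the 3 calls held under every scaling tried (median-of-ratios, quantile with 16.4% of genes higher and 13.2% lower, and TPM without the 50 highest genes with 25.9% and 11.4%) and was lost without some single libraries. In a fit without 1 library the lone remaining library of its group is assumed to vary like the other group. Without exercise replicate 2, 0 of the 8 genes were called lower or higher (3.09% and 19.7% of all tested genes), with adjusted p = 0.054 for Fkbp5, 0.12 for Tsc22d3 and 0.093 for Zbtb16 (limma), at log2 fold changes of -0.71, -0.61 and -0.89. Without control replicate 1 Fkbp5 had 0.054 and Tsc22d3 0.055 (log2 fold changes of -0.52 for both), and without exercise replicate 1, where 4.39% of genes were lower and 40.4% higher, Fkbp5 had 0.13 at -0.42 (over all alternatives 0.0086 to 0.13 for Fkbp5, 0.0052 to 0.12 for Tsc22d3 and 0.0036 to 0.0998 for Zbtb16). With no filter on low values (27036 genes tested, of which 16.7% were called higher and 1.69% lower), 0 of the 8 were called by limma, at the same log2 fold changes as with the filter.

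Sgk1, Cebpd and Ddit4 were set apart by control replicate 1 and were not called. Sgk1 (ENSMUSG00000019970) encodes a kinase that regulates ion transport and cell survival. It was at 99.9 and 46.0 TPM in the Control and 46.5 and 45.3 TPM in the Exercise group (73.0 ± 38.1 against 45.9 ± 0.884, SD, n = 2 each). Control replicate 1 was 2.17 times control replicate 2, which in TPM stood level with the exercise libraries. After median-of-ratios scaling Sgk1 was at 129 and 55.0 in the Control and 38.9 and 34.6 in the Exercise group. The groups did not overlap in that scaling, with a log2 fold change of -1.18 (not called). The log2 fold change of -0.55 (SE 0.328, adjusted p = 0.18 from limma) became 0.00 without control replicate 1 and -1.10 without control replicate 2, where it was called (adjusted p = 0.0055, range over alternatives 0.0055 to 0.98).

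Cebpd (ENSMUSG00000071637), a transcription factor induced by glucocorticoids and cytokines, was at 5.18 and 2.12 TPM in the Control and 1.87 and 1.78 TPM in the Exercise group (3.65 ± 2.16 against 1.83 ± 0.0636). The groups did not overlap, but control replicate 2 lay closer to the exercise libraries than to control replicate 1. This gave a log2 fold change of -0.64 (SE 0.315, adjusted p = 0.12 from limma), -0.14 without control replicate 1 and -1.08 after median-of-ratios scaling (not called). It was the least abundant of the 8 genes in every library. Spidr, on the opposite strand, overlaps Cebpd in GENCODE vM21, and whether counting used strand is not given in the sources used here.

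Ddit4 (ENSMUSG00000020108) encodes REDD1, which restrains the growth kinase mTORC1 through the TSC complex. It was at 51.1 and 10.1 TPM in the Control and 19.0 and 17.7 TPM in the Exercise group (30.6 ± 29.0 against 18.3 ± 0.905). The exercise libraries lay between the control libraries, which differed 5.06 times. After median-of-ratios scaling the exercise libraries still lay between them, with a log2 fold change of -0.92 (not called). The log2 fold change of -0.32 (SE 0.633, adjusted p = 0.68 from limma) turned to 0.80 without control replicate 1 (adjusted p = 0.013) and to -1.43 without control replicate 2 (adjusted p = 0.0055), so that either control library alone gave a call in its own direction (adjusted p 0.0055 to 0.83 over the alternatives). Without control replicate 2, 6 of the 8 genes were called lower and none higher (5.12% and 53% of tested genes), and without control replicate 1 only Zbtb16 was (6.13%), while Mt1 and Ddit4 were called higher (43.8%).

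**Figure D3:**
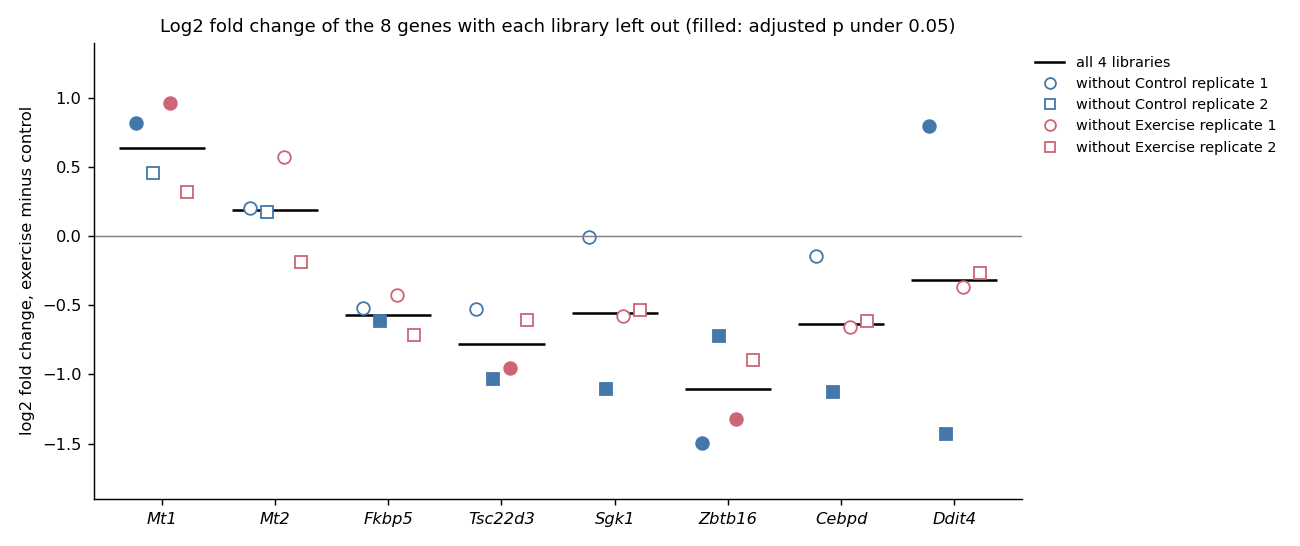
Log2 fold change of the 8 genes with all 4 libraries (black lines) and with each library left out (symbols, filled for an adjusted p under 0.05 from limma). Ddit4 lies at 0.80 without control replicate 1 and at -1.43 without control replicate 2, and Sgk1 at 0.00 and -1.10.

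Sgk1 and Cebpd had closely matching profiles on the log2(TPM + 1) scale. The root mean square difference of their log2(TPM + 1) values over the 4 libraries, each centred on its own mean, was 0.0577, and each was the nearest of all 11652 tested protein-coding genes to the other. Ccl11, a chemokine, came next for both (0.0696 and 0.0934), followed by Zfp36, which destabilizes inflammatory mRNA, for Sgk1 and by Lum, a matrix proteoglycan, for Cebpd. The nearest genes to Ddit4 were further away (Bmp4 at 0.242, Pcsk6 and Vps39). With 4 libraries many genes share a profile, and these distances are a description. They also depend on the added 1, which narrows the differences of Cebpd (1.78 to 5.18 TPM) more than those of Sgk1. In TPM, control replicate 1 was 2.44 times control replicate 2 for Cebpd and 2.17 times for Sgk1. The markers of fibro-adipogenic progenitors, stromal cells between the fibres, had a summed level of 594 and 318 TPM in the Control and 342 and 454 TPM in the Exercise group. None of the 9 was called (none higher and 1 lower at an unadjusted p under 0.05, limma), with Pdgfra at -0.56, Gsn at -0.57, Lum at -0.64 and Dcn, the most abundant, at -0.17. Under median-of-ratios scaling Pdgfra and Gsn were called lower (2 of the 9, beside 16.8% of all tested genes). The list median moved from -0.17 to -0.80, while that of all tested genes moved from 0.53 to 0.00. Without control replicate 2, 6 of the 9 were called lower, and without control replicate 1, 2 were called higher and none lower. The 5 red cell markers summed to 699 and 163 TPM in the Control and 609 and 571 TPM in the Exercise group, and none was called (none at an unadjusted p under 0.05; log2 fold changes of the 4 tested from 0.68 for Hba-a2 to 0.94 for Hba-a1, with Hbb-bs and Hbb-bt between). Both lists thus stood higher in control replicate 1 than in control replicate 2, as did Sgk1, Cebpd and Ddit4. So did the summed endothelial (113 and 71.1 TPM) and macrophage markers (61.9 and 47.1 TPM), while the adipocyte and muscle fibre sums stood lower in control replicate 1. The part of these cell types in these results was not tested.

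The other genes had varied neighbours. Nearest to Mt1 were Tspan33, Sardh and Dnajc15 (0.0314 to 0.0353), and nearest to Mt2 were Alg6, Pcbd2 and Gpatch3 (0.0539 to 0.0624). Fkbp5 was nearest to Fam25a, Ifi47 and Smox (0.0527 to 0.0579), Tsc22d3 to Gm29394, Tob2 and Mn1 (0.0516 to 0.0737), and Zbtb16 to Egf, Pitpnc1 and Neb, which encodes nebulin of the thin filament (0.0637 to 0.0768). Mt1 and Mt2 lay 0.257 apart on this scale.

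Sgk1 has several start sites, and 1 of its 6 promoter windows held a perfect glucocorticoid response element (capitals), which is shown because it was the only such match among the 13 windows of Mt1, Mt2, Fkbp5, Tsc22d3, Sgk1 and Ddit4 (RefSeq, GRCm38.p6).
Sgk1 (chr10:21993640-21993939, plus strand): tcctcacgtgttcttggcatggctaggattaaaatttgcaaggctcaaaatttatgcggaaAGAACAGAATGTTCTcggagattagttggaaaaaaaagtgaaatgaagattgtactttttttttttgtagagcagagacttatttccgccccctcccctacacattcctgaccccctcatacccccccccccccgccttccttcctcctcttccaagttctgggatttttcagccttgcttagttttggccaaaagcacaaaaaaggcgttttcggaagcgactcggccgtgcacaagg
This palindrome was found in 3 of 32851 mouse windows (0.00913%), and here it begins 965 bases before the most downstream start site of Sgk1. Its absence from the other windows says only that these letters are not within them.

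The receptor itself was not called in TPM. Nr3c1, the glucocorticoid receptor, was at 13.6 and 17.6 TPM in the Control and 15.6 and 15.5 TPM in the Exercise group, with a log2 fold change of 0.00 (SE 0.160, adjusted p = 0.99 from limma), and was called lower after median-of-ratios scaling (-0.60, adjusted p = 0.028). Of 19 tested genes of 20 in this list, 12 rose and 1 fell (55.3% and 6.19% of all tested genes), with a median log2 fold change of 0.57 beside 0.53 for all genes, which turned to -0.05 after median-of-ratios scaling (1 higher, 4 lower). Hsp90aa1, the inducible chaperone that holds the receptor ready for hormone, was at 80.0 and 102 TPM in the Control and 183 and 218 TPM in the Exercise group (a log2 difference of 1.14 with an adjusted p of 0.0034, limma, and 0.51 after scaling, still called). The coactivator Ncoa1 had 0.88 and the chaperones Hspa8 and Hsp90ab1 0.72 and 0.53, and Hsp90ab1 turned to -0.11 after scaling. The gene that fell was Nr3c2, the mineralocorticoid receptor (-0.51). Hsd11b1, which regenerates active hormone within tissue, had 0.05 and was not called, and Hsd11b2, which inactivates it, stayed at or below 0.27 TPM. Nr3c1, Nr3c2, Hsd11b1 and Hsd11b2 are named after their values were seen.

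A list of other genes known to be induced by glucocorticoids, to which Mt3 was also assigned, moved in both directions. Of 27 tested genes of 30, 8 rose and 5 fell (55.3% and 6.19% of all tested genes). The median log2 fold change was 0.01, the value of Mt3 itself, beside 0.53 for all genes. After median-of-ratios scaling 1 was higher and 11 were lower (10.6% and 16.8% of all tested genes), with a median of -0.47. Mstn, which encodes the growth inhibitor myostatin, was at 34.4 and 41.5 TPM in the Control and 13.4 and 11.1 TPM in the Exercise group (a log2 difference of -1.56, SE 0.161, with an adjusted p of 0.0028, limma). Glul, glutamine synthetase, was at 203 and 232 TPM in the Control and 94.5 and 68.0 TPM in the Exercise group (-1.43). The other genes that fell were Lpin1, a phosphatidate phosphatase (-1.11), Klf15, a transcription factor of amino acid breakdown (-0.85), and Fbxo32, the ubiquitin ligase atrogin-1 (-0.78). Trim63, the ligase MuRF1, had -0.34 and was called only after scaling (-0.97). Cdkn1a, the cell cycle inhibitor p21, rose from 463 and 536 TPM in control to 1235 and 1344 TPM in exercise libraries (1.37, and 0.73 after scaling, called). Per1 and Dusp1, both classical targets, had 0.11 and -0.35 and were not called. Lpin1, Klf15, Fbxo32, Per1 and Dusp1 are named after their values were seen. All 5 genes that fell are thus named here, but of the 8 that rose only Cdkn1a is.

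**Figure D4:**
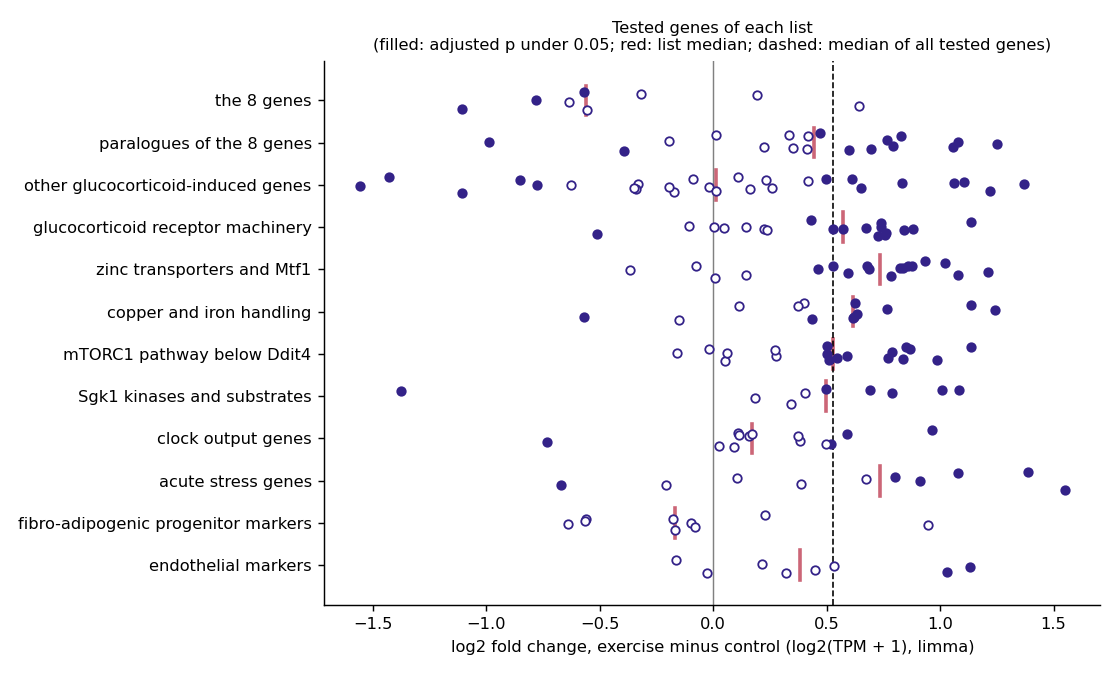
Log2 fold change (horizontal axis, exercise minus control on log2(TPM + 1)) of every tested gene in 12 lists, filled for an adjusted p under 0.05 from limma, with red ticks for list medians, a dashed line for the median of all tested genes (0.53) and a grey line at 0. The 8 genes have a median of -0.56, against 0.01 for the list of other glucocorticoid-induced genes (the value of Mt3) and 0.57 for the receptor machinery.

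The close relatives of the 8 genes moved in both directions. Of 18 tested paralogues, 9 rose and 2 fell, beside 55.3% and 6.19% of all tested genes. Their median log2 fold change was 0.44, turning to -0.05 in median-of-ratios scaling. In that scaling 2 rose and 4 fell (10.6% and 16.8% of all tested genes). The immunophilins of the endoplasmic reticulum Fkbp10 and Fkbp7 had 1.25 and 1.08, Tsc22d1 0.83 and Fkbp1a, which binds the ryanodine receptor, 0.70, all called, and Fkbp3 had 0.35. Those that fell were Cebpa and Cebpg (-0.99 and -0.39). Within libraries the ratio of Tsc22d3 to Tsc22d1 was 2.15 and 1.38 in control and 0.66 and 0.47 in exercise libraries. The ratio of Fkbp5 to Fkbp4 was 0.50 and 0.37 in control and 0.23 and 0.26 in exercise libraries, and that of Cebpd to Cebpb 0.93 and 0.54 against 0.30 and 0.25. The ratio of Ddit4 to its muscle relative Ddit4l was 3.09 and 0.23 in control and 0.69 and 0.87 in exercise libraries. In control the library high in Ddit4 was thus the lower in Ddit4l (16.6 and 44.0 TPM). These ratios were chosen after values were seen. The exact permutation test gave p = 0.333 (0.389 adjusted over the 7 ratios) for those to Tsc22d1, Fkbp4 and Cebpb, the smallest p that 2 against 2 can give. The ratio of Ddit4 to Ddit4l had a larger p in the same test.

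The pathways below Ddit4 and Sgk1 are read here against the 55.3% of all tested genes that were called higher and the median of 0.53. Of 18 genes of the mTORC1 pathway 12 rose and none fell (none lower at an unadjusted p under 0.05, limma), with a median of 0.53, which turned to -0.06 in median-of-ratios scaling (Ywhaz higher, 5 genes lower). Ywhaz, a 14-3-3 protein, had 1.14, Rps6, the ribosomal target of the pathway, 0.87 and Ywhab 0.83. Of 9 tested kinases and substrates of Sgk1, 5 rose and 1 fell, with a median of 0.50 (-0.08 in that scaling, none higher and 1 lower). The gene that fell was Ndrg2, a substrate of Sgk1, at 604 and 744 TPM in the Control and 292 and 227 TPM in the Exercise group (-1.38, and -2.01 after scaling, both called). Nherf2, a scaffold for ion exchangers, and Pdpk1, the kinase that activates Sgk1, had 1.08 and 1.01, and Wnk1 had 0.34 and was not called.

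Clock and acute stress genes were read because both can move glucocorticoid targets. The counts in this paragraph stand beside 55.3% of all tested genes called higher and 6.19% called lower. These shares were 10.6% and 16.8% after median-of-ratios scaling, and 16.4% and 13.2% under quantile normalization. Of 13 clock genes 3 rose and 1 fell, with a median of 0.17 (after median-of-ratios scaling 1 and 4, median -0.44). Clock had 0.96, Hlf -0.73, and Dbp 0.52 (-0.11 after scaling), while Tef, the most abundant, had 0.16. Of 10 acute stress genes 5 rose and 1 fell, with a median of 0.74 (3 and 2 after scaling, median 0.36). Junb, Egr1 and Ier2 had 1.55, 1.39 and 1.08 and stayed called after scaling, Nr4a1 fell by 0.67 and Jun had -0.21. Of 8 tested macrophage markers 1 fell (Lyz2, -1.16) and none rose (3 lower and none higher at an unadjusted p under 0.05, limma), against 3 lower when scaled by median of ratios and 4 under quantile normalization, with Cd163, C1qc and C1qa at -0.62, -0.53 and -0.47. Of 8 endothelial markers 2 rose (Cldn5 at 1.03 and Egfl7 at 1.13) and none fell, against 0 higher and 1 lower when scaled by median of ratios (median 0.38, turning to -0.21), with Esam and Pecam1 at 0.53 and 0.32, and their summed level was 113 and 71.1 TPM in the Control and 135 and 167 TPM in the Exercise group. Of the muscle fibre markers 6 of 10 fell, led by Myh1, Ckm and Tnnt3 (-1.23, -1.03 and -0.94), while Mylpf had -0.05, and 7 fell when scaled by median of ratios and 3 under quantile normalization. The part of these cell types in the results for the 8 genes was not tested.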

How the data were processed

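RNA-seq of TA muscle was analysed in 2 control and 2 exercise libraries. The authors deposited TPM for 57180 genes, 1 column per library, and fastp, HISAT2, StringTie and GRCm39 are listed, with no versions, in the submitters' processing notes. The paper's methods add SeqPrep and Sickle for read quality and DEGseq for differential expression, a count test that cannot be applied to TPM. Illumina Stranded mRNA Prep is named in the labels and NEBNext Ultra in the paper. Depth is unknown, so no counting error is given, and p-values measure the spread between libraries, which may be technical.

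Genes reaching 1 TPM in 2 libraries or more entered the test (13288). log2(TPM + 1), a scale that understates changes of low genes, entered limma 3.58.1 (R 4.3.3, eBayes with trend, no covariate, Benjamini-Hochberg over all tested genes, threshold 0.05). Alternatives were pseudocounts of 0.1 and 0.01, no filter, a mean of 5 TPM, median-of-ratios, quantile and top-50 scalings, protein-coding genes, other limma settings, the replicate number as a block and each library left out. The members and the 17 other gene lists were chosen with earlier results of these data known, and list counts carry no test. Named genes are the 8 members, in each list the 3 genes of smallest p and the 2 of highest mean TPM, the 3 nearest profiles of each member and the sex-linked genes. Others are marked as named after their values were seen, and 1 gene that the rule names is not reported here. Promoter windows come from RefSeq (GRCm38.p6, 6 of 8 members matched) and transcripts from GENCODE vM21. Python 3.11.15, pandas 2.3.3, numpy 2.4.6 and matplotlib 3.10.9 were used.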

Additional observations from a re-analysis of the deposited data

How the results depend on the processing

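Over all genes, 7344 were called higher and 822 lower. These counts were 4513 and 456 with no filter, 1403 and 2238 under median-of-ratios scaling, 2178 and 1749 under quantile normalization, and 3432 and 1508 when the 50 highest genes were removed. With each library left out they ranged from 2622 to 7039 and from 410 to 814. Of the 8 genes, 0 were called higher and 3 lower. With no filter 0 were lower. A mean of at least 5 TPM and protein-coding genes alone each gave 1 higher (Mt1), and with each library left out the counts ranged from 0 to 2 and from 0 to 6. Of the 195 other tested list genes, 82 were higher and 26 lower, with 8 lower under no filter, 17 and 53 under median-of-ratios scaling, 33 and 41 under quantile normalization and 46 higher when the 50 highest genes were removed. Leave-one-out counts ranged from 35 to 84 and from 14 to 29. Mt2 turned to -0.44, -0.17 and -0.21 under the median-of-ratios, quantile and top-50 scalings and to -0.19 without exercise replicate 2, and Ddit4 turned to 0.80 without control replicate 1. With each library left out Mt2 ranged from -0.19 to 0.57 and Ddit4 from -1.43 to 0.80. Changes of scaling act on every gene at once, and for the other changes the cause was not tested. The replicate numbers name libraries only (the differences between replicates 1 and 2 correlated at -0.049 across genes between groups). With the number as a block (replicate block) 7400 genes were higher and 830 lower, 0 and 3 of the 8 genes, and 86 and 29 of the list genes, and no call among the 8 genes changed. TPM keeps no depth, so no limit of detection can be given.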
